A study of Mus musculus with 31 samples.

Results

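Day 4 embryoid bodies (EBs) were compared with the ES cells on gelatin from which they were grown. The comparison took 13 of the 31 arrays of the series, 7 of day 4 EBs and 6 of gelatin ES cells, by the titles of the arrays, and tested all 12422 probe sets that are not array controls. Day 4 EBs were B6 mouse ES cells kept for 4 days in nonadherent dishes after LIF was withdrawn. Gelatin ES cells were the same B6 cells at day 0, depleted of the mouse embryonic fibroblasts on which they had been cultured with serum and LIF and passaged once on gelatin. Both groups therefore came from cells once grown on feeders, and both were profiled as whole cultures. Levels in ES cells sorted on Oct4-GFP (6 arrays, day 0) and in day 8 EBs (6 arrays) are given beside some results. RNA was amplified in 2 rounds and hybridized to Affymetrix MgU74Av2 arrays, and all levels are the deposited signal intensity on a linear scale.

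LIF, a cytokine that acts through its receptor LIFR, the co-receptor gp130 and the transcription factor STAT3, keeps mouse ES cells undifferentiated in serum. Without it and without a surface to attach to, the cells form free-floating aggregates in which lineages of the early embryo appear over days. Cells spread on a surface hold actin stress fibers and focal adhesions, and serum and actin assembly drive genes of the cytoskeleton through serum response factor (SRF) and its cofactors.

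Day 4 replicates 6 and 7 stood apart from the other day 4 arrays. Over all probe sets on the log2 scale, these 2 arrays correlated at 0.991 with each other but at 0.947 to 0.978 with day 4 replicates 1 to 5, which correlated at 0.987 to 0.993 among themselves. Gelatin arrays correlated at 0.986 to 0.997. No 2 arrays held the same values. Counts of calls are therefore given with all 7 day 4 arrays and without replicates 6 and 7. Single genes are given without them where that changed the call or, for genes that passed, moved the change by over 1.5 times. The arrays also differed in their built-in controls. The ratio of 3' to 5' signal of Gapdh, which rises when RNA or its copies are shorter, was 2.77 to 4.40 in day 4 replicates 1 to 5, 2.24 and 2.34 in replicates 6 and 7, and 3.48 to 6.85 in gelatin ES cells. For Actb this ratio was 2.33 to 3.40 in day 4 EBs, against 4.10 to 6.82 in gelatin ES cells, without overlap. The signal for 18S ribosomal RNA was 1699 to 12578 in day 4 EBs, against 1268 to 1808 in gelatin ES cells. The part of these differences in the results was not tested.

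More probe sets were lower than higher in day 4 EBs. With limma and Benjamini-Hochberg adjustment, 987 probe sets (7.95% of those tested) were higher and 2023 (16.3%) were lower at an adjusted p under 0.05, and changes of at least 2-fold numbered 32 higher and 266 lower, and 59 higher and 252 lower without replicates 6 and 7. The balance of all calls depended on the scaling between arrays: 32.8% of them were higher with the values as deposited, 56.7% after quantile normalization (1840 higher and 1403 lower) and 61.4% after centring each array on its median (2422 higher and 1521 lower). Without day 4 replicates 6 and 7 there were 1002 higher and 1960 lower, of which 665 and 1598 were also called in the same direction with all arrays. No probe set was called in opposite directions. Counted by gene, with the brightest probe set that carries 1 gene symbol, 687 of 8251 genes (8.33%) were higher and 1467 (17.8%) lower. Without replicates 6 and 7, 694 genes (8.41%) were higher and 1459 (17.7%) lower. All 7 day 4 arrays lay above all 6 gelatin arrays for 186 genes (2.25%) and below them for 653 genes (7.91%). The median log2 change over all genes was -0.02, and -0.03 without replicates 6 and 7.

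The largest decreases were in genes of the contractile cytoskeleton, of the extracellular matrix and of caveolae, the membrane pits of spread cells. Acta2, smooth muscle actin, had a signal of 935 to 3959.8 (median 1389.6) in day 4 EBs, against 10927 to 18659 (median 13555) in gelatin ES cells. The lowest gelatin array thus exceeded the highest day 4 array, and the log2 change was -3.21 ± 0.25 (adjusted p = 8.31e-11). Changes are day 4 EBs minus gelatin ES cells on the log2 scale, with the standard error and the adjusted p of limma, or the standard error alone for genes past the threshold. Tagln, the actin-binding protein transgelin, measured 1316 to 2643 (median 1504) in day 4 EBs, against 7937 to 12577 (median 8864) in gelatin ES cells. Its groups did not overlap, with a log2 change of -2.55 ± 0.12 (adjusted p = 1.13e-14). Myl9, the myosin light chain of stress fibers, measured 409 to 849.8 (median 475) in day 4 EBs, against 2139.6 to 5059 (median 3401) in gelatin ES cells, again without overlap, and changed by -2.72 ± 0.16 (adjusted p = 1.21e-12). Without day 4 replicates 6 and 7 the log2 changes were -2.94 for Acta2, -2.52 for Tagln and -2.71 for Myl9. Skeletal actin, Acta1, fell too (-2.89 ± 0.27, adjusted p = 3.89e-09), and here replicates 6 and 7 were the highest day 4 arrays at 893 and 1182, against 298 to 691 in replicates 1 to 5 and 2934 to 6043 in gelatin ES cells.

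Of 37 measured genes of the actin cytoskeleton and SRF targets, 29 were lower, none was higher and 8 did not pass, and 28 were lower without replicates 6 and 7. The median log2 change of the list was -1.06, against -0.02 over all genes. The share lower was 78.4%, against 17.8% of all genes. In 23 of the 37 every day 4 array lay below every gelatin array, which held for 7.91% of all genes. The summed signal of feeder fibroblast markers, was lower with them, at 19276 to 33910 in day 4 EBs, against 62944 to 104465 in gelatin ES cells. In whole cultures fewer cells of a type and less RNA per cell cannot be told apart, and the share of feeder cells in these decreases was not tested. Structural proteins of stress fibers were among those that fell: the calponin Cnn2 (-1.89 ± 0.12), the adhesion plaque protein vinculin, Vcl (-1.40 ± 0.23), tropomyosin 1, Tpm1 (-1.35 ± 0.12), and the crosslinker alpha-actinin 1, Actn1 (-1.34 ± 0.15). Cytoplasmic beta-actin, Actb, measured 6151 to 10894 (median 7749) in day 4 EBs, against 11897 to 15792 (median 15060.5) in gelatin ES cells. That drop (-0.89 ± 0.11, adjusted p = 3.41e-07) left no overlap between the groups. Gamma-actin, Actg1, moved little (-0.17 ± 0.06, adjusted p = 0.0347) and did not pass without replicates 6 and 7 (adjusted p = 0.0863) or with each array centred on its median. Ankrd1, a nuclear and sarcomeric protein that responds to stretch, fell to 77.2 in day 4 EBs, against 847 in gelatin ES cells, as medians, a log2 change of -3.55 ± 0.29 (adjusted p = 3.82e-10).

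SRF binds the CArG box, and the promoter windows of 4 of the fallen genes that hold one are shown with the match in capitals. The windows run from 250 bases before to 50 bases after the annotated start (RefSeq, GRCm38.p6), and lie at chr8:123894726-123895025, minus strand, for Acta1, chr2:156775214-156775513, plus strand, for Myl9, chr10:79988350-79988649, plus strand, for Cnn2, and chr14:20929148-20929447, plus strand, for Vcl.
Acta1: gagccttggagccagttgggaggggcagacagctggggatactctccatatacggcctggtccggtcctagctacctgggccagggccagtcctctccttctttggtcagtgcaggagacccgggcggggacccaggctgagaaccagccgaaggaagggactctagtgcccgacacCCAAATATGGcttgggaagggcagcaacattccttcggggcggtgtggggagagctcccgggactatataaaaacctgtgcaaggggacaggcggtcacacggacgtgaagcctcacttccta
Myl9: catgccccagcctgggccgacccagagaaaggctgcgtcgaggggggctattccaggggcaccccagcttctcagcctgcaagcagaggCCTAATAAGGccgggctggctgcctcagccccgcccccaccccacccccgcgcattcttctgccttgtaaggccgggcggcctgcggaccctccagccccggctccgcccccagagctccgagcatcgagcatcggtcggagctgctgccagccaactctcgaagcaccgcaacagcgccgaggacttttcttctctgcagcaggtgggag
Cnn2: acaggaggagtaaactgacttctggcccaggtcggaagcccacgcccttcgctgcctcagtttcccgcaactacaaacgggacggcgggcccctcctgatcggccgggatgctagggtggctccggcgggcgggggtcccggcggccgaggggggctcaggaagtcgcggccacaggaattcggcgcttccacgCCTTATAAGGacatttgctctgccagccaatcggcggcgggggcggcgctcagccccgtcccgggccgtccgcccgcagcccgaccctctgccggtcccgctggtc
Vcl: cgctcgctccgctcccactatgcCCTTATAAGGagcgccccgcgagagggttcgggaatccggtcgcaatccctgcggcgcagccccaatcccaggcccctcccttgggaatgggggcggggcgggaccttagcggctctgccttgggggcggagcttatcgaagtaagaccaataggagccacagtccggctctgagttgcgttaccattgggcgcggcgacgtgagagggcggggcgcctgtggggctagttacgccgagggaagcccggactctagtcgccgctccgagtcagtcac
The box was searched by its usual consensus on both strands, which read the same. It was present in 535 of 32851 promoter windows of mouse genes (1.63%), and in a window of 6 of the 31 list genes with a window: Acta1, Actg1, Cnn2, Myl6, Myl9 and Vcl, of which Myl6 did not pass. A gene counts if any of its windows matches, so its share is not like the share of windows. The list was also drawn up to include SRF targets, so boxes in it are no independent result. The window of Acta2 held no exact match. Boxes that differ from the consensus by even 1 base were not searched, so this does not show that Acta2 lacks a box. A match is a description of these letters and not a measured binding site.

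**Figure D1:**
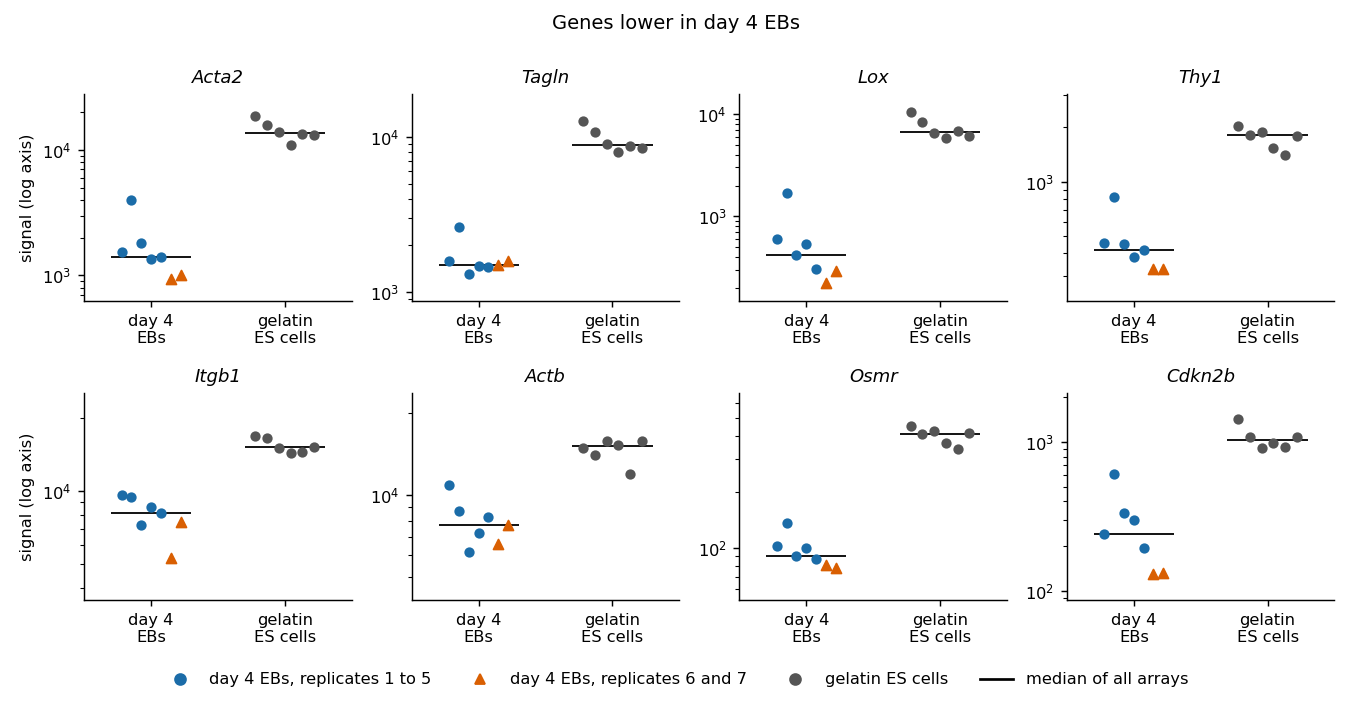
Signal of 8 genes (1 panel each, log axis) in every day 4 EB array, left, and every gelatin ES cell array, right; orange triangles are day 4 replicates 6 and 7 and bars are medians. In all 8 genes the day 4 arrays lie below the gelatin arrays, as for Tagln at 1316 to 2643 in day 4 EBs, against 7937 to 12577 in gelatin ES cells.

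Many genes that anchor cells to matrix fell with the cytoskeleton. Integrin beta 1, Itgb1, the shared subunit of most matrix receptors, measured 5318 to 9673 (median 8133) in day 4 EBs, against 14320.1 to 16978 (median 15188) in gelatin ES cells, without overlap, and changed by -0.97 ± 0.11 (adjusted p = 6.81e-08). The integrin alpha v subunit, Itgav (-1.59 ± 0.15), the adhesion adaptor Lpp (-1.92 ± 0.17) and integrin-linked kinase, Ilk (-1.12 ± 0.12), fell as well. Of 28 genes of focal adhesions and integrins, 14 were lower and 1, the leukocyte integrin subunit Itgb7 (0.18 ± 0.06), was higher, and 13 did not pass; without replicates 6 and 7 the counts were 15 lower and 1 higher, and after quantile normalization 9 and 2. The caveolar genes Cavin2 (-4.04 ± 0.29, adjusted p = 2.55e-11) and Cav1 (-2.73 ± 0.20, adjusted p = 3.49e-11) showed no overlap. Cavin2 gave 29.5 to 106 (median 41.8) in day 4 EBs, against 689.8 to 2647 (median 878) in gelatin ES cells. Its day 4 signal was near the floor of 59.6 to which low values were raised, so the size of that change depends on the floor. A dimmer probe set of Cav1 did not pass (0.14).

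Matrix genes fell more often than not. Lox, the oxidase that crosslinks collagen, measured 224 to 1677 (median 420.2) in day 4 EBs, against 5754 to 10451 (median 6604) in gelatin ES cells. Every day 4 array was below the gelatin arrays, and the log2 change was -3.94 ± 0.35 (adjusted p = 1.63e-09), with -3.59 when replicates 6 and 7 were left out. Tenascin C, Tnc, measured 41.0 to 1178 (median 280.1) in day 4 EBs, against 2216 to 4036 (median 3187) in gelatin ES cells, a change of -3.80 ± 0.47 (adjusted p = 6.06e-07). Replicates 6 and 7 held its lowest signals, at 41.0 and 53.8, and without them the change was -3.04. Both lie under the floor, so the size of this change depends on it too. Other large drops were in the fibrillar collagen Col5a2 (-3.38 ± 0.36), the metalloproteinase inhibitor Timp3 (-2.70 ± 0.27), fibulin 2, Fbln2 (-2.67 ± 0.17), the proteoglycan biglycan, Bgn (-2.39 ± 0.14), and basement membrane collagen, Col4a1 (-1.66 ± 0.27). Of 40 genes of collagens and matrix, 23 were lower, 1, the basement membrane linker Nid2 (0.67 ± 0.17), was higher and 16 did not pass, and the list had a median log2 change of -0.49. Without replicates 6 and 7, 24 were lower and 2 higher. With all arrays 57.5% were lower, against 17.8% of all genes. The secreted protein Ccdc80 (-3.72 ± 0.24), the protease Prss23 (-3.54 ± 0.48), the receptor tyrosine kinase Axl (-3.20 ± 0.24), the prostaglandin synthase Ptgs2 (-2.74 ± 0.39), the IGF-binding protein Igfbp7 (-2.90 ± 0.29) and thrombomodulin, Thbd (-2.96 ± 0.35), completed the 15 genes with the largest decreases and no overlap. For Prss23 the change was -2.81 without replicates 6 and 7. Ccdc80 had 5 of its 7 day 4 signals under the floor, and Thbd and Ptgs2 had theirs of replicates 6 and 7 under it, so these sizes depend on the floor as well.

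Several of these genes are also markers of embryonic fibroblasts. Of 30 feeder fibroblast markers, 18 were lower, none was higher and 12 did not pass (18 lower and 1 higher without replicates 6 and 7). The summed signal of the 30 had a median of 21216 in day 4 EBs, against 69975 in gelatin ES cells, and was 32957 to 40565 in sorted ES cells. The lowest gelatin array thus exceeded the highest day 4 array, and no marker was at 0 in any of these arrays. Thy1, a surface protein of fibroblasts, measured 326 to 818 (median 417) in day 4 EBs, against 1404 to 2041 (median 1803) in gelatin ES cells, without overlap (adjusted p = 3.56e-11), with a log2 change of -1.84 without replicates 6 and 7. Type I collagen fell in both chains, Col1a1 (-2.10 ± 0.19, adjusted p = 2.42e-09) and Col1a2 (-2.43 ± 0.29, adjusted p = 3.89e-07), as did Col3a1 (-1.12 ± 0.30, adjusted p = 0.0064), S100a4 (-1.64 ± 0.14) and the dim Pdgfrb (-0.58 ± 0.07). Other defining fibroblast genes did not: decorin, Dcn, had a log2 change of 0.46 ± 0.30 (adjusted p = 0.292) with its highest signals in replicates 6 and 7 (953 and 971), lumican, Lum, 0.09 ± 0.37 (adjusted p = 0.917), and periostin, Postn, -0.40 ± 0.37 (adjusted p = 0.48). The collagens Col6a1 (-0.10) and Col6a2 (0.03) did not pass with all arrays either. Of the 11 defining fibroblast markers 6 were thus lower, and 7 without replicates 6 and 7. Matrix Gla protein, Mgp, was at 0.42 ± 0.20 (adjusted p = 0.127), and at 0.58 (adjusted p = 0.0424) without replicates 6 and 7. Medians in sorted ES cells were below those on gelatin for the leading genes, with 6081 for Acta2, 2491 for Tagln, 1599.7 for Lox, 376 for Tnc and 774 for Thy1. They were also below for Col1a1, Col1a2, S100a4 and Pdgfrb. Sorted medians were above those on gelatin for Col3a1 (953 against 805), Dcn (501 against 393) and Lum (336 against 220). The same held for Postn (270 against 181) and Mgp (813 against 340).

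**Figure D2:**
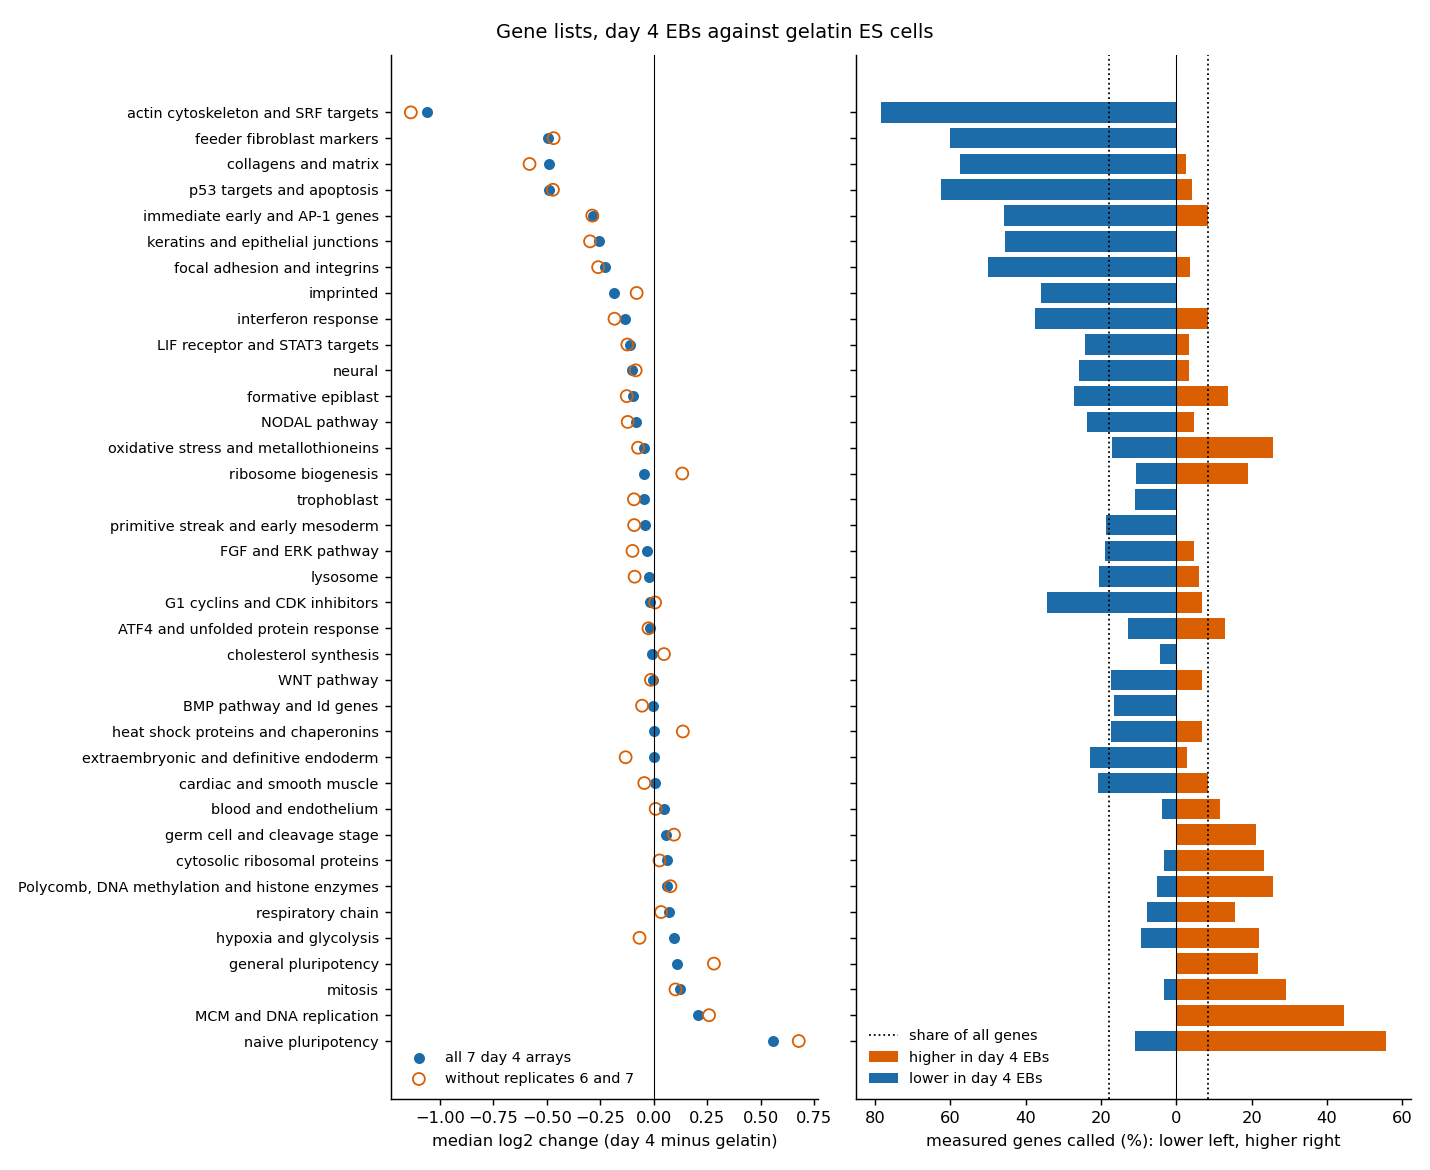
The 37 gene lists, 1 per row: left, median log2 change (day 4 EBs minus gelatin ES cells) with all day 4 arrays (filled) and without replicates 6 and 7 (open); right, percent of the measured genes called lower (blue, left of 0) or higher (orange, right of 0), with dotted lines at the shares of all genes, 17.8% lower and 8.33% higher. The actin and SRF list is lowest with a median of -1.06 and naive pluripotency highest with 0.56.

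Genes of pluripotency were not lower as a group after 4 days without LIF. Pou5f1, the gene of OCT4, measured 2407 to 6651 (median 5688) in day 4 EBs, against 3908 to 5253 (median 4921) in gelatin ES cells, and the groups overlapped, with a log2 change of -0.02 ± 0.25 (adjusted p = 1.0). Its day 4 arrays split, with 5341 to 6651 in replicates 1 to 5 and 2407 and 2617 in replicates 6 and 7, while day 8 EBs had a median of 1613. Without these 2 arrays the change was 0.34 (adjusted p = 0.309). Sox2, the partner of OCT4, was at 0.20 ± 0.13 (adjusted p = 0.294) with all arrays and at 0.37 (adjusted p = 0.0273) without replicates 6 and 7. Nanog, the homeobox factor of self-renewal, measured 3969 to 6653 (median 5373) in day 4 EBs, against 1365 to 4351 (median 3301) in gelatin ES cells, and the groups overlapped. It was higher in day 4 EBs by 0.95 ± 0.23 (adjusted p = 0.00246), and by 0.85 without replicates 6 and 7; its second probe set did not pass (0.44). The growth factor co-receptor Tdgf1 (-0.28 ± 0.23, adjusted p = 0.413) did not pass, nor did the chromatin factor Utf1 (0.23 ± 0.10, adjusted p = 0.104), which was higher after quantile normalization or median centring, as Sox2 was after quantile normalization.

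Of 18 genes of naive pluripotency, the state of the blastocyst's inner cells, 10 were higher, 2 were lower and 6 did not pass, and without replicates 6 and 7, 11 were higher and 2 lower. The list's median log2 change was 0.56 (0.68 without replicates 6 and 7), against -0.02 over all genes. The share higher was 55.6%, against 8.33% of all genes. Dppa3 (STELLA), a maternal factor that guards DNA methylation, measured 1430.4 to 2360.4 (median 1684) in day 4 EBs, against 367 to 841 (median 664) in gelatin ES cells. No day 4 array reached down to the gelatin arrays, and the change was 1.49 ± 0.25 (adjusted p = 4.69e-05). The nuclear receptor Nr5a2, which binds the Pou5f1 gene, measured 941 to 2310.1 (median 2122) in day 4 EBs, against 502 to 831 (median 737) in gelatin ES cells, also without overlap, a change of 1.34 ± 0.21 (adjusted p = 1.89e-05). The orphan receptor Nr0b1 (0.89 ± 0.17, adjusted p = 0.000335), the T-box factor Tbx3 (0.71 ± 0.21, adjusted p = 0.0115), the OCT4 target Fbxo15 (0.86 ± 0.28, adjusted p = 0.0233) and the Krüppel-like factor Klf2 (0.59 ± 0.17, adjusted p = 0.0116) were higher, as was Rex2 (1.03 ± 0.28, adjusted p = 0.00715), which is dim. Fbxo15 did not pass without day 4 replicate 3 (0.78, adjusted p = 0.0503). Tbx3 measured 1152 to 1613 in replicates 1 to 5. Replicates 6 and 7, at 498 and 528, lay under its gelatin range of 539 to 746, and without them its change was 1.115. Klf4 did not pass (0.05 ± 0.31, adjusted p = 0.966). Replicates 1 to 5 measured 3329 to 4654 and replicates 6 and 7 measured 961 and 1236 for this gene, on either side of the gelatin range of 2098 to 3250.0. Zfp42 (REX1) measured 572 to 2426 (median 1805) in day 4 EBs, against 549.5 to 845 (median 664) in gelatin ES cells. It did not pass with all arrays (1.04 ± 0.50, adjusted p = 0.139) and passed without replicates 6 and 7 (1.49, adjusted p = 0.038); sorted ES cells had a median of 8115. Klf5 (-0.89 ± 0.16, adjusted p = 0.000112) and the STAT3 target Gbx2 (-0.72 ± 0.19, adjusted p = 0.00595) were the 2 members that fell. For Gbx2 the change was -0.36 without replicates 6 and 7. Esrrb, an orphan receptor of self-renewal, lay in the dim part of the array and changed by 0.17 ± 0.06 (adjusted p = 0.0402), and it did not pass without replicates 6 and 7 (adjusted p = 0.0856).

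The summed signal of the 18 naive genes shows where the day 4 arrays part. It was 38563 to 45207 in day 4 replicates 1 to 5, 25404 to 30097 in replicates 6 and 7, and 25786 to 31130 in gelatin ES cells. Replicates 1 to 5 thus lay above every gelatin array, and replicates 6 and 7 within or just under the gelatin range. Sorted ES cells had 50326 to 56778. Of 23 genes of general pluripotency, 5 were higher (21.7%, against 8.33% of all genes) and none was lower (6 and 1 without replicates 6 and 7). The 5 were Nanog, the NODAL antagonist Lefty1 (0.59 ± 0.16), the cell cycle factor Mybl2 (0.59 ± 0.11), alkaline phosphatase, Alpl (0.54 ± 0.10), and the PRC2 partner Jarid2 (0.35 ± 0.12), whose call was lost without replicates 6 and 7 (adjusted p = 0.0555).

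**Figure D3:**
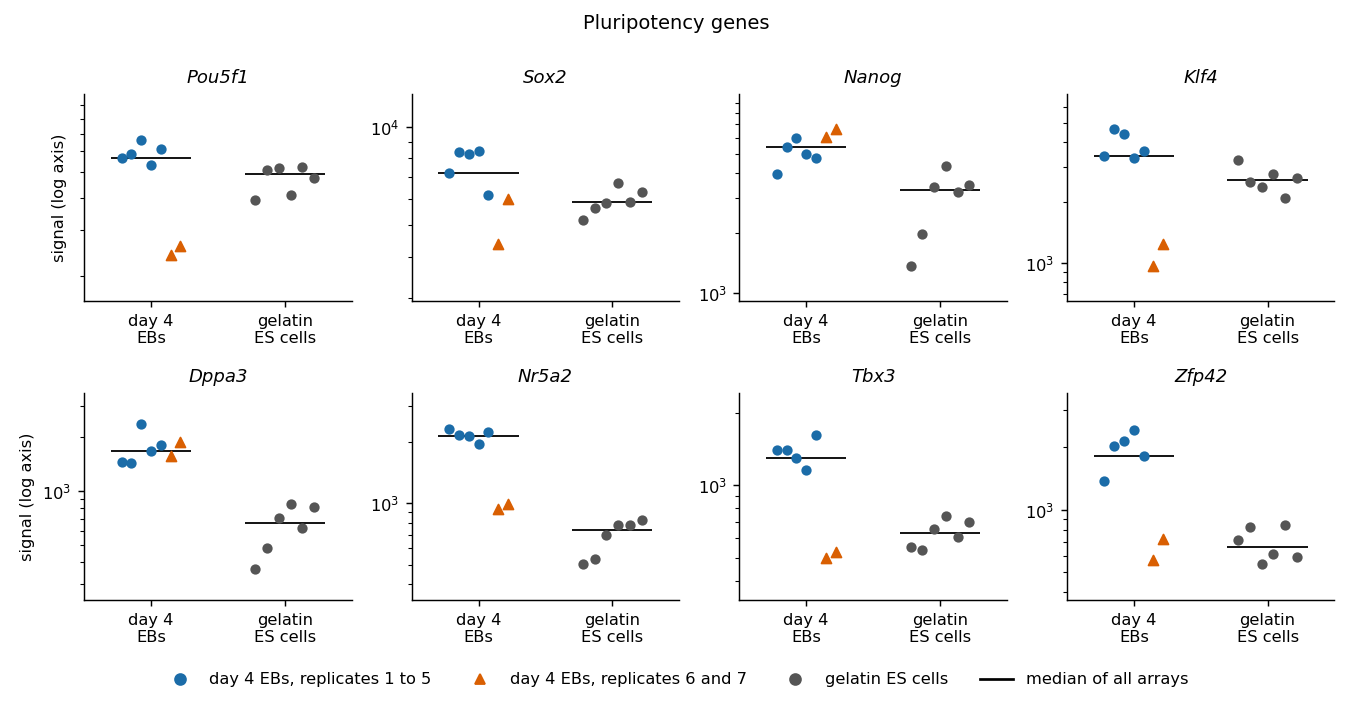
Signal of 8 pluripotency genes (1 panel each, log axis) in day 4 EBs, left, and gelatin ES cells, right; orange triangles are day 4 replicates 6 and 7 and bars are medians. For Pou5f1, Klf4, Tbx3 and Zfp42 replicates 6 and 7 lie below the other day 4 arrays, and for Dppa3 and Nr5a2 all day 4 arrays lie above the gelatin arrays.

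Of 19 measured genes of the germ line and of cleavage stages, 4 were higher (21.1%, against 8.33% of all genes) and none was lower, with or without replicates 6 and 7. Besides Dppa3 these were the X-linked homeobox gene Rhox5, which measured 2092 to 6758 (median 3503) in day 4 EBs, against 678 to 973 (median 881) in gelatin ES cells without overlap and changed by 2.01 ± 0.23 (adjusted p = 1.54e-07), the germ cell gene Tex19.1 (0.67 ± 0.12) and Prdm1 (0.61 ± 0.12), a repressor that specifies germ cells. Rhox5 stood higher still in sorted ES cells, with a median of 11835. Of the other genes with the largest increases and no overlap, 9 had varied roles. They were the phosphofructokinase Pfkp (1.52 ± 0.21), uridine phosphorylase, Upp1 (1.42 ± 0.22), the muscle myosin light chain Mylpf (1.40 ± 0.15), the actin-binding protein Twf2 (1.11 ± 0.21), the mitochondrial protein Chchd10 (1.10 ± 0.19), the cochaperone Dnajc21 (1.07 ± 0.20), Hibadh (1.05 ± 0.16), an enzyme of valine breakdown, the autophagy receptor Calcoco2 (0.97 ± 0.21) and 2810025M15Rik (1.20 ± 0.19). A second probe set of Upp1 did not pass (0.00).

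The LIF pathway changed unevenly. The receptor Lifr measured 342 to 583 (median 508) in day 4 EBs, against 256 to 304 (median 284) in gelatin ES cells, without overlap, and rose by 0.77 ± 0.16 (adjusted p = 0.000791). Of its 4 other, dimmer probe sets 1 passed (0.26). Osmr, the oncostatin M receptor, which also pairs with gp130, measured 78.3 to 136 (median 90.5) in day 4 EBs, against 343 to 455 (median 411) in gelatin ES cells. That is a drop with no overlap (-2.08 ± 0.12, adjusted p = 2.74e-13), and sorted ES cells had a median of 282. The shared co-receptor gp130, Il6st (-0.29 ± 0.12, adjusted p = 0.0745), Stat3 (-0.14 ± 0.07, adjusted p = 0.138) and its feedback inhibitor Socs3 (-0.22 ± 0.09, adjusted p = 0.0738) did not pass, although the dimmer probe sets of Stat3 (-0.48) and Socs3 (-0.91) were lower. Without gelatin replicate 1 Socs3 was lower (-0.30, adjusted p = 0.00609), and without gelatin replicate 4 Il6st was (-0.36, adjusted p = 0.03). Of 29 genes of the LIF receptor and STAT3 targets, 7 were lower, 1 was higher and 21 did not pass (6 lower and 2 higher without replicates 6 and 7). That is 24.1% lower, against 17.8% of all genes. Myc, a transcription factor gene downstream of STAT3, measured 159 to 433 (median 341) in day 4 EBs, against 565 to 748 (median 677) in gelatin ES cells, without overlap, and fell by 1.17 ± 0.16 (adjusted p = 2.72e-06).

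Immediate early genes, which serum and matrix contact induce within minutes, were often lower. Of 24, 11 were lower (45.8%, against 17.8% of all genes) and 2 were higher (8.33%, as among all genes). Without replicates 6 and 7 the counts were 12 and 2. Ccn1 (CYR61), a matricellular target of SRF and YAP, measured 728 to 2229 (median 969) in day 4 EBs, against 4084 to 5754 (median 4573) in gelatin ES cells, with no overlap, a change of -1.99 ± 0.21 (adjusted p = 4.79e-08), and its relative Ccn2 (CTGF) fell by 1.14 ± 0.17 (adjusted p = 1.24e-05). Egr1 and Fos, the classical serum-induced factors, depended on replicates 6 and 7. Egr1 measured 1984 to 2556 in replicates 1 to 5, 504 and 591 in replicates 6 and 7 and 2211 to 4027 in gelatin ES cells. It passed with all arrays (-0.90 ± 0.29, adjusted p = 0.0247) and did not without these 2 (-0.32, adjusted p = 0.142). Fos did not pass in either case (-1.12 ± 0.45, adjusted p = 0.0717, and -0.32, adjusted p = 0.522, without them), although it was lower without replicate 2 (-1.37, adjusted p = 0.0235) or replicate 4 (-1.26, adjusted p = 0.0483). In the FGF and ERK pathway the ERK phosphatase Dusp6 fell by 1.06 ± 0.21 (adjusted p = 0.000387), while 4 of 21 genes were lower (a share near the 17.8% of all genes) and 1 was higher, and without replicates 6 and 7 the counts were 3 and 0.

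Genes of TGFβ family signaling passed at shares near those of all genes. The activin subunit Inhba measured 975 to 2191 (median 1189) in day 4 EBs, against 1921 to 8565 (median 4000.4) in gelatin ES cells and fell by 1.68 ± 0.22 (adjusted p = 2.03e-06), and the activin antagonist follistatin, Fst, fell by 1.25 ± 0.22 (adjusted p = 7.22e-05); the groups overlapped in both. Nodal itself did not pass (-0.30 ± 0.15, adjusted p = 0.161), but was lower without gelatin replicate 1 (-0.45, adjusted p = 0.0184). Of 21 NODAL pathway genes 5 were lower (23.8%, against 17.8% of all genes) and 1, Lefty1, was higher, with 5 and 2 without replicates 6 and 7. Among 24 genes of the BMP pathway and Id genes, 4 were lower (16.7%) and none higher (3 and 0 without replicates 6 and 7), with the inhibitors of differentiation Id1 (-0.50 ± 0.12, adjusted p = 0.00238) and Id2 (-0.87 ± 0.28, adjusted p = 0.0231), and Id2 did not pass without replicates 6 and 7 (adjusted p = 0.135) or without replicate 6 alone (adjusted p = 0.0611). For 29 WNT pathway genes the counts were 5 lower (17.2%) and 2 higher, and 7 and 3 without replicates 6 and 7, led by the target cyclin D1, Ccnd1.

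Markers of the next embryonic stages passed in both directions at day 4 for the epiblast, but only as lower for the primitive streak and early mesoderm. Of 22 genes of the formative epiblast, the state that follows naive pluripotency, 3 were higher (13.6%, against 8.33% of all genes) and 6 lower (27.3%, against 17.8%), and without replicates 6 and 7 the counts were 2 and 10. Fgf5, the epiblast growth factor, was dim at 148 to 205 (median 174) in day 4 EBs, against 125 to 161 (median 140.4) in gelatin ES cells, with a change of 0.29 ± 0.10 (adjusted p = 0.0346) that did not pass without replicates 6 and 7 (adjusted p = 0.162). The de novo methyltransferase Dnmt3a (0.28 ± 0.10, adjusted p = 0.037) and the epiblast factor Tcf15 (0.44 ± 0.11, adjusted p = 0.0034) were higher, and Pou3f1 (OCT6) did not pass with all arrays (-0.15 ± 0.10, adjusted p = 0.297) and was lower without replicates 6 and 7 (-0.29, adjusted p = 0.0137). Nestin, Nes, a filament of neural progenitors and other dividing cells, measured 697 to 1192 (median 1027) in day 4 EBs, against 3391 to 5264 (median 4529) in gelatin ES cells, with no overlap, and was much lower (-2.19 ± 0.14, adjusted p = 3.28e-12), although its dimmer probe set did not pass (0.10). Sorted ES cells had a median of 894. N-cadherin, Cdh2 (-1.80 ± 0.39, adjusted p = 0.000898), and the ephrin receptor Epha2 (-1.42 ± 0.11, adjusted p = 5.74e-11) were lower too, with -1.19 for Cdh2 without replicates 6 and 7. Of 32 genes of the primitive streak and early mesoderm, none was higher, 6 were lower (18.8%) and 26 did not pass. Without replicates 6 and 7 the number lower was 5, and after quantile normalization it was 1. Eomes (-0.05 ± 0.07, adjusted p = 0.658), Gsc (-0.02 ± 0.09, adjusted p = 0.933) and Mesp1 (0.09 ± 0.06, adjusted p = 0.245), factors of the streak and its derivatives, did not pass, and the somite gene Meox1 was lower (-0.46 ± 0.08, adjusted p = 4.63e-05). Wnt3, a ligand that starts the streak, was lower (-0.22 ± 0.07, adjusted p = 0.0224) but did not pass after either rescaling of the arrays.

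Genes of later lineages were higher at shares of 2.86% to 11.5% of each list, against 8.33% of all genes. The share lower was 17.8% among all genes. Among 26 blood and endothelial genes 3 were higher (11.5%) and 1 lower (3.85%), and 3 and 2 without replicates 6 and 7. Among 24 cardiac and smooth muscle genes 2 were higher (8.33%) and 5 lower (20.8%), and 1 and 3 without these 2 arrays. Among 31 neural genes 1 was higher (3.23%) and 8 lower (25.8%), and 2 and 6 without them. The defining markers of cardiac muscle (6 genes), blood (5 genes) and endothelium (4 genes) held 0 genes past the adjusted threshold of limma, with or without replicates 6 and 7, and 1, of endothelium, at an unadjusted p under 0.05. For 35 genes of extraembryonic and definitive endoderm, 1 was higher (2.86%) and 8 were lower (22.9%, against 17.8% of all genes). Without replicates 6 and 7 the counts were 1 and 9. The higher one was Apoe, an apolipoprotein, with 10166 to 15143 (median 13187) in day 4 EBs, against 6236 to 8698 (median 7091) in gelatin ES cells and a change of 0.84 ± 0.10 (adjusted p = 2.33e-07). The endoderm factors Gata4 (0.07 ± 0.06, adjusted p = 0.409), Gata6 (0.12 ± 0.08, adjusted p = 0.335) and Sox17 (0.00 ± 0.09, adjusted p = 1.0) and the serum protein genes Afp (0.08 ± 0.10, adjusted p = 0.636) and Ttr (0.00 ± 0.17, adjusted p = 1.0) did not pass. Those that fell included the basement membrane genes Col4a1, Lamb1 and Lamc1, with Thbd and Fst.

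Endoderm genes were among those that set day 4 replicates 6 and 7 apart. Replicates 6 and 7 both lay at least 2-fold above all of replicates 1 to 5 for 36 of 8251 genes and at least 2-fold below them for 58, and 6 of those 36 were among the 35 endoderm genes. The same count over the 33 keratins and epithelial junction genes was 6 (and 2 below), and over the 32 genes of hypoxia and glycolysis it was 5. The summed signal of the endoderm list was 33857 to 36874 in replicates 1 to 5, 47480 and 54797 in replicates 6 and 7, and 39726 to 43702 in gelatin ES cells, and it was 70209 to 104926 in day 8 EBs. Spink1, a trypsin inhibitor, measured 427 to 584 in replicates 1 to 5, 4478 and 5878 in replicates 6 and 7 and 711 to 968 in gelatin ES cells. The change was 0.25 ± 0.44 (adjusted p = 0.753) with all arrays and -0.71 (adjusted p = 6.84e-06) without these 2. Cubn, the endocytic receptor cubilin, measured 174 to 192, 1139 and 1459.9 and 171 to 246 in the same order, and did not pass either way (0.63, and -0.17 without replicates 6 and 7). Dab2, its endocytic adaptor, measured 235 to 351, 1361 and 2798 and 575 to 925 in that order. Dab2 did not pass with all arrays (-0.54 ± 0.40, adjusted p = 0.352) and was lower without replicates 6 and 7 (-1.34, adjusted p = 2.16e-06). The choice of these genes rests on the difference between the 2 arrays and the others, so the values are a description.

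The 10 genes whose change differed most between the comparisons with and without the 2 arrays were Srgn, Spink1, Mmp3, Cubn, Fos, Dab2, Ccl2, Tnc, Prss23 and P4ha1. Srgn, the core protein of secretory granule proteoglycans, measured 101 to 198 in replicates 1 to 5, 1673 and 2813 in replicates 6 and 7, and 43.5 to 64.3 in gelatin ES cells, with 4318 as the day 8 median. Its gelatin signals are at the floor, and it was higher either way, by 2.27 ± 0.55 (adjusted p = 0.00269) and by 1.12 (adjusted p = 0.000143) without replicates 6 and 7. P4ha1, a collagen prolyl hydroxylase induced by low oxygen, measured 399.7 to 595 in replicates 1 to 5, 2397 and 3035 in replicates 6 and 7, and 642 to 1355 in gelatin ES cells. It did not pass with all arrays (-0.14 ± 0.35, adjusted p = 0.846) and was lower without the 2 (-0.87, adjusted p = 8.95e-05). Mmp3, the matrix protease stromelysin, went the other way, with 852 to 1839 in replicates 1 to 5, 162 and 141 in replicates 6 and 7, and 291 to 492 in gelatin ES cells. Its change was 0.68 ± 0.42 (adjusted p = 0.269) with all arrays and 1.52 (adjusted p = 1.74e-05) without replicates 6 and 7. Leaving out replicate 7 alone was enough for Mmp3 to pass (1.04, adjusted p = 0.0373) and for Dab2 to pass (-0.96, adjusted p = 0.0151). The chemokine Ccl2 was lower in both cases (-1.90 and -1.11).

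**Figure D4:**
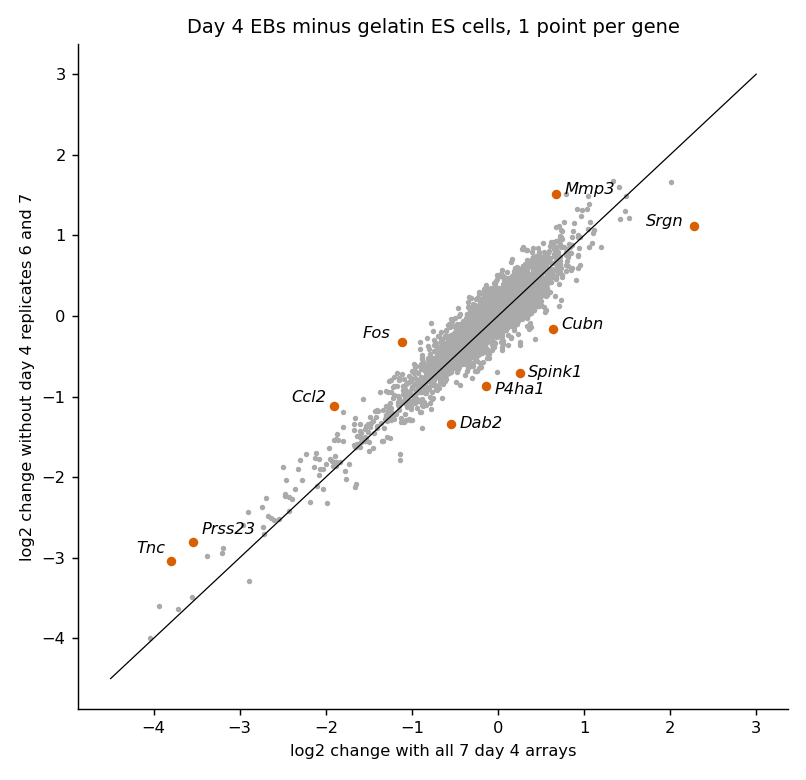
Log2 change of 8251 genes (day 4 EBs minus gelatin ES cells) with all 7 day 4 arrays (x axis) and without replicates 6 and 7 (y axis); the line marks equal values and the 10 genes that differ most are named. Srgn, Cubn, Spink1, P4ha1 and Dab2 lie below the line and Mmp3, Fos, Ccl2, Tnc and Prss23 above it.

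**Figure D5:**
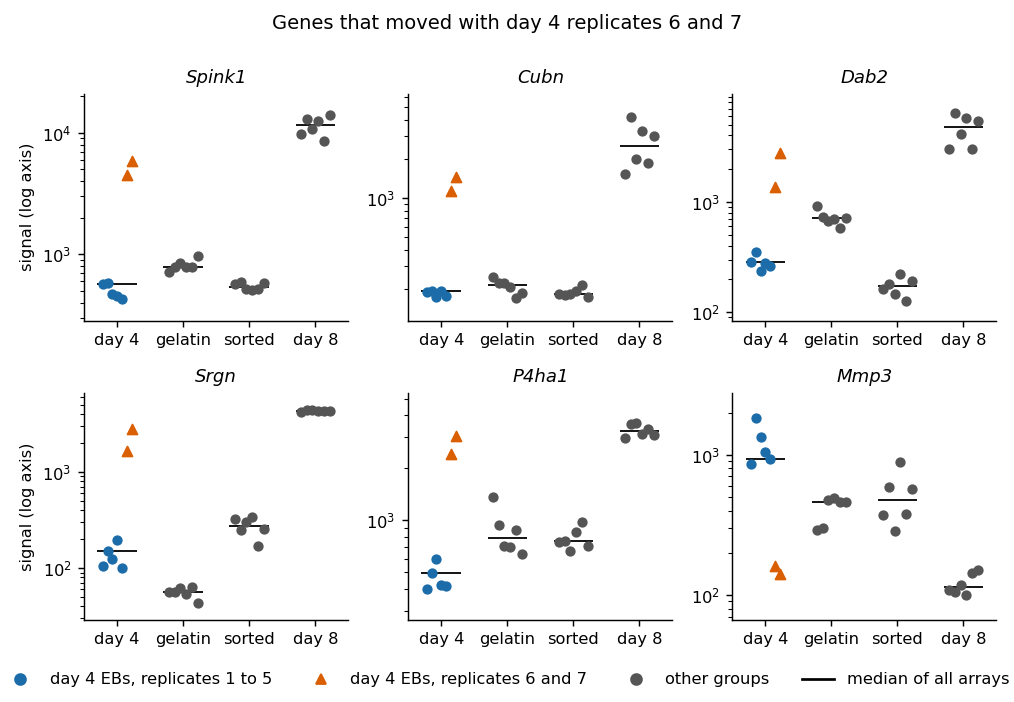
Signal of 6 genes (log axis) in day 4 EBs, gelatin ES cells, sorted ES cells and day 8 EBs, 1 point per array, with day 4 replicates 6 and 7 as orange triangles and medians as bars. For all 6 the triangles lie between day 4 replicates 1 to 5 and the day 8 median, as for Spink1 with 427 to 584 in replicates 1 to 5, 4478 and 5878 in replicates 6 and 7, and a day 8 median of 11574.

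Many epithelial genes were lower at day 4. Of 33 keratins and epithelial junction genes 15 were lower (45.5%, against 17.8% of all genes) and none was higher (14 and none without replicates 6 and 7). The keratin Krt8 measured 1808 to 4241 (median 2128) in day 4 EBs, against 4338 to 5476 (median 5279) in gelatin ES cells, with no overlap, and fell by 1.02 ± 0.16 (adjusted p = 1.98e-05). E-cadherin, Cdh1, fell less (-0.43 ± 0.12, adjusted p = 0.00879). Replicates 6 and 7 were the highest day 4 arrays for Krt8, at 4241 and 3856, and for Krt19, at 1313 and 1231, against 196 to 397 in replicates 1 to 5. Krt19 changed by -1.14 with all arrays and by -1.79 without these 2. The membrane protein Emp1 was the member that fell furthest (-2.50 ± 0.35, adjusted p = 3.91e-06), with -1.87 without replicates 6 and 7.

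Many genes of DNA replication were higher. Of 36 measured, 16 were higher, none was lower and 20 did not pass, and 18 were higher without replicates 6 and 7 and 25 after quantile normalization. The median log2 change was 0.21, against -0.02 over all genes. The share higher was 44.4%, against 8.33% of all genes. Mcm7, a subunit of the helicase that opens replication origins, measured 2373 to 3668 (median 2733) in day 4 EBs, against 1291 to 2312 (median 1538) in gelatin ES cells, without overlap, and rose by 0.79 ± 0.11 (adjusted p = 4.88e-06). The helicase subunits Mcm4 (0.39 ± 0.13), Mcm2 (0.33 ± 0.10) and Mcm3 (0.24 ± 0.07) rose by smaller amounts, while the helicase subunits Mcm5 and Mcm6 did not pass. The clamp loader subunit Rfc4 (0.75 ± 0.18) and the primase subunit Prim2 (0.72 ± 0.14) rose by similar amounts. E2F, a factor that binds sites in promoters, switches on replication genes at the start of S phase. Its part in the rise of these genes was not tested. The windows of Mcm7 (chr5:138171834-138172133, minus strand) and Mcm3 (chr1:20820263-20820562, minus strand) are shown with matches in capitals (RefSeq, GRCm38.p6).
Mcm7: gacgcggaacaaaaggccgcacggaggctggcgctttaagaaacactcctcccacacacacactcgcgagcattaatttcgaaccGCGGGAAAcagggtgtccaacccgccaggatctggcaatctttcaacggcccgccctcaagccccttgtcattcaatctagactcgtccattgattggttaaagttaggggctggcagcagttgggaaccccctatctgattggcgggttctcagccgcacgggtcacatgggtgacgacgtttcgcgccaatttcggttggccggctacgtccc
Mcm3: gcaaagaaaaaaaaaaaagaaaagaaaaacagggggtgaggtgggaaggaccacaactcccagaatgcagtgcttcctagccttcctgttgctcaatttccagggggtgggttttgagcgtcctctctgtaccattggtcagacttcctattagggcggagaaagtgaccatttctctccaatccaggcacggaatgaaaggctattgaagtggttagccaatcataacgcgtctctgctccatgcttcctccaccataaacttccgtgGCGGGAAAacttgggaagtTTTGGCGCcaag
The letters searched were TTTCCCGC and TTTGGCGC on both strands, and they occurred in 514 of 32851 promoter windows (1.56%). They were present for 10 of the 32 list genes with a window, of which Mcm3, Mcm7, Pola1 and Rfc3 were higher and 6 did not pass. Of the list genes with a window 13 were higher, and 4 of these 13 held the letters. A gene counts if any of its windows matches, so its share is not like the share of windows.

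Mitotic genes were higher in 9 of 31 cases (29.0%, against 8.33% of all genes) and lower in 1 (3.23%), and without replicates 6 and 7 in 6 and 2. The checkpoint kinase Bub1 was higher (0.57 ± 0.16, adjusted p = 0.00799), and the mitotic kinase Plk1 lower (-0.29 ± 0.07, adjusted p = 0.00238), a call that was lost after quantile normalization. Cyclins and inhibitors of G1, the phase before replication, were lower in 10 of 29 cases (34.5%, against 17.8% of all genes) and higher in 2 (6.9%). Without replicates 6 and 7 the counts were 9 and 2. Ccnd1, cyclin D1, measured 1322 to 3889 (median 3495) in day 4 EBs, against 6072 to 6698 (median 6412) in gelatin ES cells, with no overlap, and fell by 1.20 ± 0.23 (adjusted p = 0.000311). The CDK inhibitor Cdkn2b (p15) measured 129.8 to 611 (median 243) in day 4 EBs, against 918 to 1431 (median 1038) in gelatin ES cells, without overlap, and fell by 2.13 ± 0.25 (adjusted p = 1.82e-07), with a median of 254 in sorted ES cells. Cdkn2a, which encodes p16 and ARF, fell by 0.58 ± 0.14 (adjusted p = 0.00238). The MYC antagonist Mxi1 was higher (0.73 ± 0.13, adjusted p = 9.04e-05).

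A joint list held genes of apoptosis and targets of p53, which responds to damage and culture stress. The 2 kinds were not counted apart. Of the 24 measured genes of this list, 15 were lower, 1 was higher and 8 stayed short of the threshold. The list's median was -0.49, and all day 4 arrays lay below all gelatin arrays for 14 of the 24. Without replicates 6 and 7, 16 were lower and 1 higher. With all arrays 62.5% were lower, against 17.8% of all genes. Among all genes, 7.91% had every day 4 array below every gelatin array. Perp, a membrane protein of p53-driven apoptosis, measured 647 to 2819.6 (median 1573) in day 4 EBs, against 4507 to 6247 (median 4728) in gelatin ES cells, without overlap, and fell by 1.87 ± 0.27 (adjusted p = 5.58e-06), while sorted ES cells had a median of 850.1. Cyclin G1, Ccng1 (-1.31 ± 0.23, adjusted p = 9.49e-05), the kinase Plk2 (-1.08 ± 0.09, adjusted p = 2.51e-10), the ubiquitin ligase Mdm2 (-0.68 ± 0.11, adjusted p = 4.47e-05) and the CDK inhibitor Cdkn1a (p21, -0.89 ± 0.18, adjusted p = 0.000479) fell with it, and Gadd45a was the member that was higher (0.52 ± 0.13, adjusted p = 0.0034).

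Chromatin genes were more often higher than lower, with 10 of 39 higher (25.6%, against 8.33% of all genes) and 2 lower (5.13%). Without replicates 6 and 7 the counts were 10 and 5. The histone H3K9 demethylase Kdm3a measured 1658 to 3501 (median 2995) in day 4 EBs, against 1326 to 1757 (median 1492) in gelatin ES cells and was higher by 0.87 ± 0.12 (adjusted p = 3.34e-06); replicate 6 was its lowest day 4 array, at 1658, within the gelatin range. The acetyltransferase Kat2b (0.74 ± 0.19, adjusted p = 0.00588), the deacetylase Hdac6 (0.57 ± 0.07, adjusted p = 1.31e-06) and the PRC2 subunit Suz12 (0.50 ± 0.16, adjusted p = 0.021) were higher, and the BAF complex subunit Smarcc1 was lower (-0.74 ± 0.11, adjusted p = 1.32e-05).

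In the list of oxidative stress genes and metallothioneins, the metallothioneins were higher and several enzymes driven by NRF2 were lower. The metal-binding protein Mt1 measured 3520.4 to 5149 (median 4192) in day 4 EBs, against 1771 to 2184 (median 1943) in gelatin ES cells. Its relative Mt2 measured 13202 to 15581 (median 14701) in day 4 EBs, against 9313 to 10711 (median 9330.0) in gelatin ES cells. Neither overlapped between the groups, and the log2 changes were 1.12 ± 0.16 (adjusted p = 3.65e-06) for Mt1 and 0.59 ± 0.08 (adjusted p = 2.03e-06) for Mt2. The enzymes that fell were thioredoxin reductase, Txnrd1 (-0.52 ± 0.13, adjusted p = 0.00284), sulfiredoxin, Srxn1 (-0.47 ± 0.10, adjusted p = 0.000701), the glutathione transferase Gsto1 (-0.88 ± 0.14, adjusted p = 1.66e-05) and the quinone reductase Nqo1 (-0.70 ± 0.23, adjusted p = 0.0285). The last, Nqo1, did not pass without replicates 6 and 7 (-0.24, adjusted p = 0.155), which had its lowest signals at 161 and 243, against 483 to 775 in replicates 1 to 5 and 626 to 818 in gelatin ES cells. In all, 9 of the 35 genes of this list were higher (25.7%, against 8.33% of all genes) and 6 lower (17.1%, near the 17.8% of all genes). Without replicates 6 and 7 the counts were 6 and 6.

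The count for hypoxia and glycolysis depended on the 2 arrays. Of 32, 7 were higher (21.9%) and 3 lower (9.38%) with all day 4 arrays, against 8.33% and 17.8% of all genes. Without replicates 6 and 7, however, 3 were higher and 10 lower. The pyruvate dehydrogenase kinase Pdk1 was higher either way (0.70 ± 0.11, adjusted p = 1.4e-05, and 0.77 without them), as was Ndrg1 (0.93 ± 0.20, adjusted p = 0.00115, and 0.59). The glucose transporter Slc2a3 measured 2939 to 4259 in replicates 1 to 5, 8353 and 9848 in replicates 6 and 7, and 4018 to 5941 in gelatin ES cells. It did not pass with all arrays (-0.12 ± 0.21, adjusted p = 0.739) and was lower without them (-0.53, adjusted p = 0.000996).

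Imprinted genes, expressed from 1 parental allele, were lower in 9 of 25 cases and higher in none, with or without replicates 6 and 7. That is 36.0% lower, against 17.8% of all genes. Necdin, Ndn, measured 648 to 1335 (median 930.0) in day 4 EBs, against 1989 to 3905 (median 2448) in gelatin ES cells, with no overlap, and fell by 1.51 ± 0.19 (adjusted p = 5.56e-07). The growth factor Igf2 fell by 0.65 ± 0.20 (adjusted p = 0.0182), a call lost after quantile normalization, and its replicates 6 and 7, at 4354 and 4621, were above replicates 1 to 5, at 1639.8 to 1991. Without replicates 6 and 7 the change of Igf2 was -1.02. The interferon response was lower in 9 of 24 genes (37.5%) and higher in 2 (8.33%), with 11 and 1 without replicates 6 and 7. Lysosome genes passed at shares near those of all genes, with 2 of 34 higher (5.88%) and 7 lower (20.6%), and 3 and 8 without replicates 6 and 7. The shares of all genes were 8.33% higher and 17.8% lower. For 39 genes of ATF4 and the unfolded protein response the counts were 5 higher and 5 lower, 12.8% each, and 4 and 5 without the 2 arrays. Of 18 trophoblast genes none was higher and 2 were lower (11.1%), with 0 and 1 without the 2 arrays. Of 23 genes of cholesterol synthesis none was higher and 1 was lower (4.35%), with 0 and 3 without the 2 arrays. Of 30 cytosolic ribosomal protein genes 7 were higher (23.3%) and 1 lower (3.33%), and 6 and 1 without the 2 arrays. Of 51 respiratory chain genes 8 were higher (15.7%) and 4 lower (7.84%), but 4 and 5 without replicates 6 and 7 and 16 and 2 after quantile normalization. Of 37 ribosome biogenesis genes 7 were higher (18.9%) and 4 lower (10.8%), and 10 and 5 without the 2 arrays. In the lists with no gene higher, the unadjusted p of limma was under 0.05 in that direction for 2 BMP pathway genes, 1 feeder marker, 3 cholesterol genes and 0 genes of the actin, epithelial, imprinted, primitive streak and trophoblast lists. Heat shock proteins and chaperonins gave 2 higher (6.9%) and 5 lower (17.2%) of 29, near the shares of all genes, and 7 and 4 without replicates 6 and 7.

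Other, dimmer probe sets of some genes gave another result than the one described. Those of Vcl (0.01), Actn1 (0.17), Actb (-0.10), Col1a2 (0.09), Col3a1 (0.00), Ccnd1 (0.03), Dusp6 (0.00), Egr1 (-0.10), Igf2 (-0.01), Ndn (-0.26), Srxn1 (0.04) and Plk1 (0.09 and -0.10) did not pass, while the probe sets described were lower. The same held for genes that were higher, with Apoe (0.04), Nr0b1 (0.08), Mybl2 (0.14), Lefty1 (0.36), Dnmt3a (0.00), Mcm3 (0.15), Itgb7 (0.22), Suz12 (-0.03 and 0.29) and Bub1 (0.20 and -0.65). In contrast, a second probe set of Slc2a3 (0.57) and of Sox17 (0.29) was higher and one of Fos (-0.51) was lower, where the brighter probe set did not pass. By mean signal the dimmer probe sets of Dusp6, Dnmt3a and Nr0b1 were at percentiles 3.7, 0.676 and 4.7. The floor left them little room to change, so they say little about these genes.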

How the data were processed

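RNA of 31 cultures was amplified in 2 rounds and hybridized to Affymetrix MgU74Av2 arrays. The authors computed the deposited signal intensity with dChip, whose version and model settings are not given in the sources used here, and the values are linear and already scaled between arrays. Of 12488 probe sets 66 controls were left out. Before log2, 59.6 (percentile 5 of the intensities) was set as a floor. With limma 3.58.1 (R 4.3.3), lmFit and eBayes with a trend were run on all 31 arrays with a mean for each of 5 groups, and day 4 EBs minus gelatin ES cells was adjusted by Benjamini-Hochberg over 12422 probe sets (threshold 0.05). The script was tested on simulated data. Figures were drawn with matplotlib 3.10.9.

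Groups come from the titles. The methods call the samples biological and state 6 per time point, against 7 arrays at day 4, and p-values measure only the spread between samples of a group. That spread was taken over all 5 groups together, so the spread among sorted ES cells and later EBs enters standard errors and p-values as well. A gene can thus fail to pass through spread outside the groups compared. The precision is limited by the number of arrays.

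The platform annotation gave 1 symbol to 10833 probe sets, several to 396 and none used here to 1193. A gene is its brightest probe set over all arrays (8251 genes), and probe sets of 1 gene can disagree, as the report states. One gene of the largest increases is not reported here. Named were the 15 largest changes in each direction without overlap, up to 8 members per direction of each of 37 lists with members a reader would look for, and the 10 genes most moved by day 4 replicates 6 and 7. The genes and lists were chosen with earlier results of these data known. Cnn2, Tpm1, Actn1, Actb, Actg1, S100a4, Pdgfrb, Postn, Mcm2, Mcm3, Mcm4, Gata6, Sox17, Afp, Ttr and Cdh1 were named after their values were seen or as markers of a cell type. Mcm5, Mcm6, Col6a1 and Col6a2 were mentioned afterwards and are not in the counts of named genes. Promoter windows are RefSeq's, build GRCm38.p6.

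Alternatives were quantile normalization, median centring, other floors, no dim probe sets, the 2 groups alone, array weights, a block for the replicate number, no trend of the variance, and leaving out day 4 replicates 6 and 7 or each array in turn.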

Additional observations from a re-analysis of the deposited data

Results flagged for a closer look

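Over the named genes, 326 sets of values (a gene in day 4 EBs or in gelatin ES cells) were searched for an array far from the rest of its group, and 18 held one. Chance alone sets apart about 1 in 20 such sets (5%).

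Day 4 replicate 2 was the highest of the 7 day 4 arrays in 9 of the 18. Its signal was 106 for Cavin2 (others 29.5 to 48.8), 153 for Ccdc80 (others 17.8 to 62.6), 1024 for Cav1 (others 479 to 631) and 2643 for Tagln (others 1316 to 1601). For collagens it was 1247 for Col1a2 (others 450.2 to 691) and 567.8 for Col3a1 (others 333 to 409.7). It was also 818 for Thy1 (others 326 to 458), 324 for Postn (others 108 to 157) and 2191 for Inhba (others 975 to 1316). This array also had the highest summed signal of the 30 feeder fibroblast markers among day 4 arrays, 33910, which is still under the lowest gelatin array at 62944. Without this array Dnmt3a did not pass (0.27, limma adjusted p = 0.0585) and Fos did (-1.37, adjusted p = 0.0235), and no other named gene changed its call. The search used log2 values with the floor of 59.6. All the other Cavin2 signals and most of those of Ccdc80 lie under it, so the flags of these genes depend on the floor.

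Other single day 4 arrays stood apart. Replicate 6 was lowest with 2060.4 for Klf2 (others 2926 to 3678) and 948 for Il6st (others 1259.5 to 1498). Replicate 3 was highest with 7635 for Lefty1 (others 4312 to 5443) and 876 for Tex19.1 (others 531 to 658). Replicate 5 was highest with 420.4 for Meox1 (others 269 to 315).

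In gelatin ES cells replicate 1 was lowest with 678 for Rhox5 (others 854 to 973) and 4338 for Krt8 (others 5076 to 5476), and highest with 392 for Ctsh (others 321 to 340.2), a lysosomal protease. Replicate 5 was lowest with 912 for Dnmt3a (others 1328 to 1457).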

How the results depend on the processing

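The count of higher probe sets moved with scaling: 1840 after quantile normalization and 2422 with each array centred on its median, against 987 with the values as deposited, while the lower counts were 1403 and 1521 against 2023. These scalings shifted the median log2 change of all probe sets to 0.035 and 0.057. Requiring a 2-fold change left 32 higher and 266 lower, with 59 and 252 without day 4 replicates 6 and 7 and 57 and 232 with array weights. Without a fold threshold the other settings stayed within 1.5 times of 987 and 2023, and leaving out each array in turn gave 745 to 1037 higher and 1763 to 2091 lower. Spink1 reversed to -0.712 without day 4 replicates 6 and 7. Of 163 named genes, 129 passed with all arrays and 132 without these 2. Same-numbered arrays of the groups had correlations of their deviations of 0.096, 0.232, -0.129, -0.150, 0.142 and 0.153. Arrays with different numbers were not compared in this way, so whether same-numbered arrays share a batch was not tested. With a replicate block 861 were higher and 2000 lower. Among the genes described, Egr1, Esrrb, Fgf5, Fbxo15, Jarid2, Nqo1 and Wnt3 did not pass with the block and Dab2 did. Genes near the floor, such as Cavin2, have a size of change set by that floor. Weak calls were lost when 1 of several arrays was left out (limma adjusted p over those arrays): Actg1 with 6 arrays (0.0563 to 0.0809), Dnmt3a with 7 (0.0521 to 0.128), Esrrb with 7 (0.0589 to 0.105), Fgf5 with 7 (0.0501 to 0.0844), Mcm4 with 6 (0.0521 to 0.0912), Itgb7 with 4 (0.0546 to 0.0854), Nqo1 with 4 (0.055 to 0.0739), Egr1 with 3 (0.0605 to 0.0661), Suz12 with 3 (0.052 to 0.0622), Jarid2 with 2 (0.0574 and 0.0658) and Wnt3 with 2 (0.0614 and 0.0711).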
